A study of Mus musculus with 38 samples.

Results

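The cells described here were single E14 mouse embryonic stem cells (mESCs) that had been exposed to all-trans retinoic acid (RA) for 24 h, and the subject is how they differed from each other. Every well of the 24 h plate with more than 2000 unique molecular identifiers (UMIs, tags that mark single captured mRNA molecules) was taken as a cell, which gave 290 of 384 wells, out of 2448 cells kept over all 9 plates of the study. Before differentiation the cells were kept in 2i/L, a defined medium with 1 µM PD0325901 (a MEK inhibitor), 3 µM CHIR99021 (a GSK3 inhibitor) and 1000 U/ml leukemia inhibitory factor (LIF). They were then washed and moved to basal N2B27 medium with 0.25 µM RA, stained with Hoechst, and sorted one per well into a 384-well plate for SCRB-seq, a method that tags and sequences the 3′ ends of mRNAs. The study followed RA differentiation from 0 h (2i/L) to 96 h with 1 such plate per time point, beside bulk RNA-seq and SMART-seq2, a full-length single-cell method. With 1 plate per time point, no difference between times could be tested against replicate error, so values are given with counting error only and differences are named by fixed sizes. The plates of 0 h, 12 h and 36 h, which came from the same E14 line, are set beside the 24 h cells.

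mESCs in 2i/L are in the naive pluripotent state, which a network of transcription factors including Nanog, Esrrb, Klf4 and Tfcp2l1 maintains and which Zfp42 (Rex1) marks. RA enters the cell, binds the nuclear RA receptors, and turns on direct targets such as Stra8, Cyp26a1 and the first Hox genes, while the naive network is taken down. If every cell held the same mRNA levels, UMI counts would differ only by chance capture and follow a Poisson distribution, in which the variance equals the mean. The Fano factor, variance over mean, is then 1, and anything above 1 is spread beyond such sampling.

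One short stretch of bases has to be shown first, because most of the genes that varied together in these cells hold it. The run of 30 bases below was the one held by most members of the largest co-varying group. It belongs to the B2 element, a short interspersed repeat with a very large number of copies in the mouse genome, many of them in the untranslated ends of mRNAs.
run in B2: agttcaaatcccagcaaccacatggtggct
Its copies in 6 transcripts follow, named for their place among the most variable or most correlated genes and, for Nanog, as a marker. Sequences are written along each mRNA as in GENCODE M21 (GRCm38), and capitals mark bases that match the run or its reverse complement. All 6 lie in the 3′ UTR, in the last exon.
Ppp1r16b, reverse complement, chr2:158764946-158764975, plus strand: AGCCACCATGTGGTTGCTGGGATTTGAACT
Sec23ip, reverse complement, chr7:128784285-128784314, plus strand: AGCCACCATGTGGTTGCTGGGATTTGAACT
Gmeb1, reverse complement, chr4:132222334-132222363, minus strand: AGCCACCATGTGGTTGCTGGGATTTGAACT
Nanog, reverse complement, chr6:122713725-122713754, plus strand: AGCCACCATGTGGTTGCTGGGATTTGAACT
Dennd5b, same direction, chr6:148990179-148990208, minus strand: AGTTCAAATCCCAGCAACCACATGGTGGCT
Bcas2, same direction, chr3:103179033-103179062, plus strand: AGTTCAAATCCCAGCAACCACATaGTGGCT
Bcas2 has 1 mismatch, in lower case. The copy in Nanog lies in exon 4 of 4, 879 bases from the 3′ end of the mRNA, and the others lie between 90 and 2108 bases from it. Reads of a shared repeat can be counted for any mRNA that holds it, so the counts of these genes are uncertain.

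The 290 cells held a median of 3559.5 UMIs, with a range from 2056 to 62365, and 9 wells held more than 20000. Of the other 94 wells, 16 had fewer than 500 UMIs. All 9 plates carry the same 384 well barcodes, and the log10 totals of the 24 h wells correlated with those of the same wells on the other plates at Pearson's r between 0.262 and 0.46. After thinning each cell to 2000 UMIs, the 24 h cells showed a median of 872.7 genes, fewer than the 986.3 at 0 h, 954.3 at 12 h and 957.6 at 36 h. The 9 wells with more than 20000 UMIs (F5, H11, J9, J11, L9, L11, N2, N3 and N9) stood apart from the rest. The same wells were deep on the other plates, where all 9 exceeded 20000 UMIs at 6 h and 36 h, 8 of them did at 0 h, 12 h, 48 h and 60 h, 5 did at 72 h and 1 at 96 h. Well N2 exceeded it on only 2 other plates, and well N3 did so on all 9 plates. What these wells held beyond 1 sorted cell, if anything, was not tested. They meet the rule for a cell and were kept, and results that rest on them are also given without them.

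Markers of the naive state and of the response to RA were both found in the cells. Nanog, a core factor of the naive state, had 1146 UMIs, and 265 of 290 cells held at least 1 (91.4%, exact binomial 95% interval 87.5 to 94.3%). Zfp42 had 737 UMIs in 188 cells (64.8%, 59.03 to 70.3%). Stra8, a direct RA target needed later for entry into meiosis, had 376 UMIs in 137 cells (47.2%, 41.4 to 53.2%). All such intervals cover counting error only. Per cell, Nanog ranged from 0 to 22 UMIs with a median of 3, Zfp42 from 0 to 41 with a median of 1, and Stra8 from 0 to 24 with a median of 0. The highest Zfp42 and Stra8 counts were both in well N3, and without the 9 deepest wells the highest were 14 and 13 UMIs.

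Thinned to 2000 UMIs, the share of cells with a UMI was 77.04% for Nanog, 48.96% for Zfp42 and 30.4% for Stra8. At 12 h the thinned shares were 66.6%, 68.6% and 14.5%, and at 36 h they were 75.4%, 22.3% and 37.7%. Stra8 was detected in 0.706% of thinned cells at 0 h, where the median depth was 3938.5 UMIs, so its share at 24 h lies far above that in cells without RA. Zfp42 was down to 1.81% at 96 h with a median depth of 4028, whereas Nanog still gave 41.5% there although the core factor Pou5f1 had no UMI in any of the 137 cells. Mesoderm, trophoblast and fibroblast markers were near the limit at 24 h, with 8, 1 and 5 UMIs summed over 6 genes each. Gata4, a regulator of extraembryonic endoderm, had 0 UMIs in 290 cells, which at a floor of 3 counts allows a share of cells with a UMI of up to 1.03%.

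**Figure D1:**
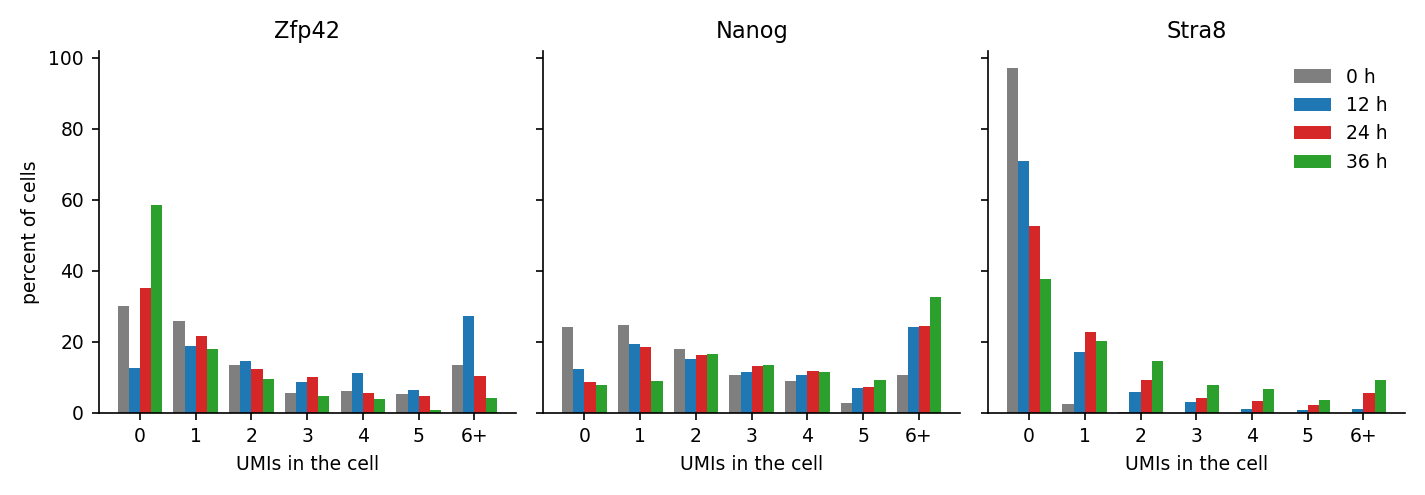
Percent of cells (y axis) by the number of Zfp42, Nanog or Stra8 UMIs in the cell (x axis, unthinned, 6 or more pooled) for the 0 h, 12 h, 24 h and 36 h plates (282, 285, 290 and 334 cells). At 24 h all 3 genes run from cells without a UMI to cells with 6 or more, and Stra8 is absent from 97.2% of the 0 h cells.

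The spread of each marker was compared with that of the genes in general. The Fano factor over thinned cells at 24 h was 1.53 for Zfp42, 1.44 for Nanog and 1.958 for Stra8. Of 2752 genes with a mean of at least 0.1 UMI per thinned cell, 1461 had a higher Fano factor than Zfp42 and 1805 a higher one than Nanog, so both lay near the middle, but only 330 (12.0%) exceeded Stra8. Zfp42 was missing from 51.04% of thinned cells where a Poisson distribution of the same mean gives 41.9%. Nanog was missing from 22.96% against 17.7%, and Stra8 from 69.6% against 62.1%. Stra8 had a Fano factor of 1.10 at 12 h, when its mean was 0.165 UMI, and of 1.38 at 36 h, when its mean was 0.569 UMI, so that its 24 h value, at a mean of 0.477 UMI, was above both neighbours. In the 52 cells with more than 6000 UMIs the Stra8 Fano factor was 1.33, and in the 173 cells with 2000 to 4000 it was 2.21. The corresponding values were 1.44 and 1.54 for Zfp42, while Nanog had 1.65 in the deepest cells and 1.14 in the 65 cells with 4000 to 6000 UMIs. Pou5f1 (Oct4), in contrast, was among the least variable genes, with a Fano factor of 1.11 that 2661 of the 2752 genes exceeded, while Sox2, its partner in the core network, had 1.89.

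The higher spread at 24 h was found in most genes. Over 2935 genes with a mean of at least 0.1 UMI across the plates, the mean Fano factor was 1.30 at 0 h, 1.31 at 12 h, 1.58 at 24 h and 1.34 at 36 h. Of these genes, 2400 (81.8%) had a higher Fano factor at 24 h than at 12 h, and 2417 (82.4%) a higher one than at 36 h. The mean difference from 12 h was 0.269, and the median gene differed by 0.221. Without the wells over 20000 UMIs the mean at 24 h was 1.59 and the difference 0.281. A Fano factor of at least 1.5 was reached at 24 h by 1574 of 2752 genes (57.2%), against 10.5% at 0 h, 10.1% at 12 h and 7.92% at 36 h. Later plates were high again, with a mean Fano factor of 1.47 at 48 h, 1.60 at 60 h, 1.81 at 72 h and 1.63 at 96 h. There, 24.8%, 40.2%, 66.2% and 55.6% of genes reached 1.5. For 290 cells, Poisson sampling of a single gene gives values between 0.844 and 1.17 in 95% of cases. Only 10 genes lay below 1, the median was 1.55, 270 genes reached 2 and 19 reached 3. Genes just inside the size were Coq7 (1.5003), Ss18 (1.5004) and Psmb3 (1.5009), and those just outside were Rpn2 (1.4999), Supt6 (1.4997) and Itpa (1.4996). In 158 genes the single cell with the highest count decided whether 1.5 was reached.

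The difference from 12 h was found at most levels of expression. In the 1380 genes with 0.1 to 0.2 UMI per thinned cell the median Fano factor was 1.53 at 24 h and 1.26 at 12 h, and in the 265 genes with 0.5 to 1 UMI it was 1.56 and 1.30. It was smaller in the 111 genes with 1 to 2 UMIs, at 1.45 and 1.34, and in the 128 genes with 2 to 5 UMIs the medians were 1.63 and 1.40. Only in the 47 genes with more than 5 UMIs was the 24 h value, 2.01, below the 2.13 at 12 h and the 2.59 at 36 h. In the 437 genes that hold the B2 run the median was 1.503 at 24 h and 1.28 at 12 h, against 1.56 and 1.27 for genes without it. In the 61 genes of the co-varying group described below the median was 1.86 at 24 h and 1.88 at 12 h. Whether the repeat had a part in the rise was not tested.

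The rise depended strongly on how deeply the cells had been sequenced, although all were thinned to the same number of UMIs. In cells with 2000 to 4000 UMIs the mean Fano factor was 1.69 at 24 h (173 cells) and 1.38 at 12 h (124 cells). In cells with 4000 to 6000 UMIs it was 1.45 (65 cells) and 1.27 (71 cells). In cells with more than 6000 it was 1.26 (52 cells) and 1.20 (90 cells), a difference of 0.0613, and at 36 h the deep cells had 1.27 (131 cells). Without the wells over 20000 UMIs the deep cells had 1.29 at 24 h (43 cells), 1.21 at 12 h (76 cells) and 1.28 at 36 h (119 cells). The number of genes with a Fano factor of at least 1.5 fell from 1574 to 1015 in the 194 cells with more than 3000 UMIs, and to 287 in the 52 cells with more than 6000. The 24 h cells also showed fewer genes per 2000 UMIs in each depth class, with medians of 854.5, 884.4 and 930.3 against 933.0, 947.7 and 998.3 at 12 h. Whether a difference of depth or of capture set part of the rise was not tested, and plate and time cannot be told apart.

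**Figure D2:**
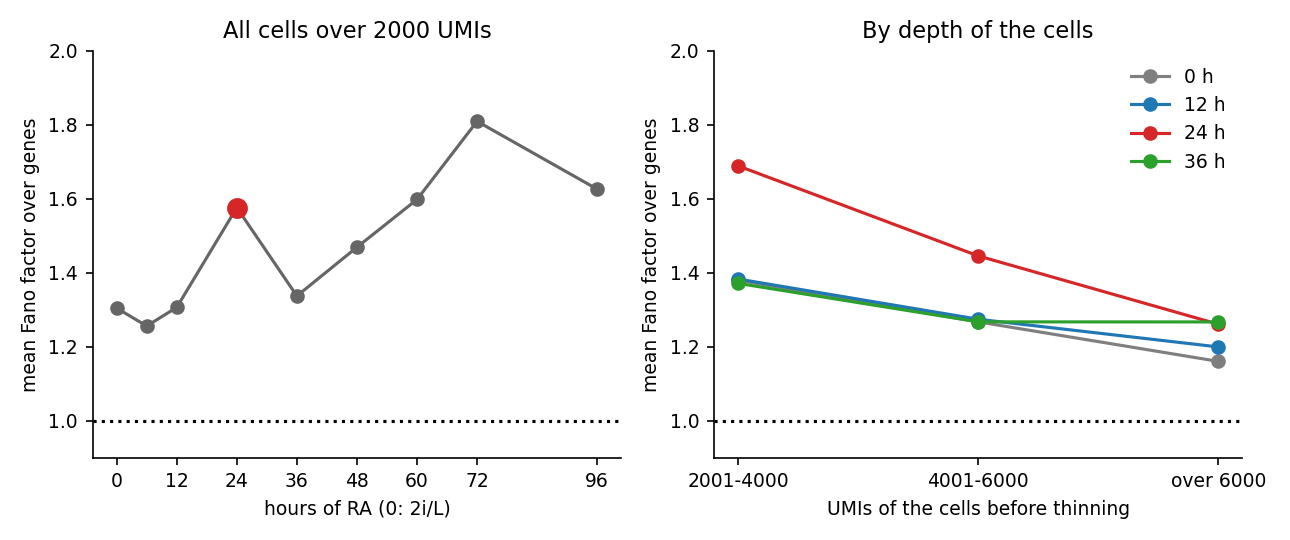
Mean Fano factor over 2935 genes (y axis) by hours of RA for all cells with more than 2000 UMIs (left, 24 h in red), and for the 0 h, 12 h, 24 h and 36 h plates by the UMIs of the cells before thinning (right). The dotted line is the Poisson value of 1. The 24 h value is 1.58 over all cells, and falls from 1.69 in the shallowest to 1.26 in the deepest cells.

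Whole-plate sums showed gaps at 24 h as well. The 12 h and 36 h plates each gave 10 or more UMIs for 8649 genes, and 81 of these (0.937%) had no UMI at all in the 290 cells at 24 h. The same count, relative to each plate's own neighbours in time, was 12 of 8016 at 12 h (0.150%) and 6 of 7703 at 36 h (0.0779%). It was 35 of 8834 at 48 h (0.396%) and 23 of 7389 at 72 h (0.311%), with 0.0596% at 6 h and 0.0972% at 60 h. The 24 h plate also had the lowest median depth of the 9 plates, 3559.5 UMIs. How much of the gaps follows from depth was not tested. Add3, which encodes a membrane skeleton protein, had 35 UMIs at 12 h, 0 at 24 h and 38 at 36 h, although bulk RNA-seq at 24 h counted 27 among 2007586 UMIs. In bulk values here and below, fewer cells with a transcript and less of it per cell cannot be told apart. E2f6, a transcriptional repressor, had 27, 0 and 26 UMIs and 22 in bulk at 24 h, and Tspan6 had 15, 0 and 37 and 43 in bulk. These 3 genes were chosen after their values were seen. Among listed genes, the epiblast factor Pou3f1 had 16, 0 and 68 UMIs, and the RA receptor gene Rarb 13, 0 and 27, with 2 and 9 UMIs in bulk at 24 h.

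Genes with the most spread fell into a few kinds. Rn45s, the precursor of ribosomal RNA, had the highest Fano factor, 18.8, and 5.53% of all UMIs, but it was higher still at 12 h (22.6) and 36 h (26.3). Ppp1r16b (4.64), Sec23ip (4.21), Ogdh (3.55), Dennd5b (3.48), Ttf1 (3.43), Gmeb1 (3.39), Luc7l2 (3.12) and Pbld1 (3.11) all belonged to the co-varying group described below. 2310039L15Rik (6.49), Gm7102 (4.58) and Dcdc2c (4.39) owed their place to 1 cell, well B21, without which their Fano factors were 1.89, 2.25 and 1.53. The remaining 8 of the 20 most variable genes were found with up to 14 UMIs in a single cell at means of 0.1 to 0.3 UMI. Noc2l, a nucleolar protein gene, reached 3.83, with 14 of its 190 UMIs in well C23, and had 1.06 at 12 h. Pum2, an RNA-binding regulator of translation, reached 3.31 with 12 of 152 UMIs in well I23, and fell to 1.48 without that cell. Prim1, a DNA primase subunit, reached 3.13 with 10 of 121 UMIs in well E18, and kept 2.74 without it. In Bcat2, a branched-chain aminotransferase, the value dropped from 3.08 to 1.16 when well P19 was left out.

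The genes whose spread rose most from 12 h included 4 with their highest count in well B21, namely 2310039L15Rik, Gm7102, Dcdc2c and 1700030L20Rik (3.09, up from 0.982). The others were Noc2l, Pum2, Rnf5, Slc39a10, Cnot6 and Krt8, each with its highest count in a different well. Krt8, a keratin of simple epithelia, had 7 of its 18 UMIs in well A14, and its Fano factor was 3.01 with that cell and 0.991 without it. The largest falls were in Rn45s and in Ogdh, Luc7l2, Pbld1 and Casc4, genes of the co-varying group, and in low genes such as Tpd52l2, which went from 2.34 to 1.40.

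The gene lists showed the same broad spread. Of 261 listed genes with a mean of at least 0.1 UMI, 174 (66.7%) had a Fano factor of at least 1.5, beside 57.2% of all genes, against 19 of 260 (7.31%) at 12 h. For each list, the shared squared coefficient of variation was computed, which is the covariance between different genes of the list divided by the squared mean of its total. It is 0 where the genes vary independently, and positive where cells are high or low in all of them.

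Naive pluripotency genes were lower in level than at 12 h. Their total went from 6.79 UMIs per 2000 at 0 h over 4.74 at 12 h to 3.92 at 24 h and 2.63 at 36 h. At 24 h, 8 of the 14 members were above 0.1 UMI per thinned cell, and 6 of these had a Fano factor of at least 1.5 (57.2% of all genes did), against 0 of 9 at 12 h. Klf4 had 1.76, Fgf4 1.70, Esrrb 1.69 and Tfcp2l1 1.68, while Klf2 had 1.33. Esrrb was found in 75 cells and Klf4 in 83. The shared squared coefficient of variation was -0.0223, so no joint variation was detected in these sparse counts. In the 89 SMART-seq2 cells, by contrast, r with the other naive genes was 0.614 for Nanog and, with Nanog left out, 0.424 for Zfp42. Both the total and the shared value include Nanog, whose SCRB-seq counts are uncertain. Nanog alone averaged 0.931 UMI at 0 h, 1.32 at 12 h, 1.73 at 24 h and 1.71 at 36 h, so the other naive genes fell more steeply than the total. Among core pluripotency genes, 8 of 12 reached 1.5 (1 of 12 at 12 h). Sox2 had 285 UMIs in 113 cells and Dppa2, a chromatin factor of early embryos, 365 UMIs in 122 cells with a Fano factor of 1.65.

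RA targets were higher, going from a summed 0.42 UMI per 2000 at 0 h and 1.02 at 12 h to 1.72 at 24 h and 2.08 at 36 h. Of 20 targets, 5 were above 0.1 UMI, and all 5 of these reached a Fano factor of 1.5 (57.2% of all genes did), against 0 of 4 at 12 h (10.1%). After Stra8 came Nrip1, a nuclear receptor corepressor, with 1.82, Aqp3, a water and glycerol channel, with 1.62, and the receptor Rarg with 1.54. Below 0.1 UMI, Hoxb1 had 28 UMIs in 21 cells and Cyp26a1, which breaks down RA, 29 UMIs in 19 cells, against 192 in 100 cells and 87 in 53 cells at 36 h. The total of the list had a Fano factor of 1.63, but its shared squared coefficient of variation was -0.0151. Stra8 correlated with the rest of the targets at r = -0.00936 over the 290 cells. The naive total, which includes the uncertain Nanog counts, was close to uncorrelated with the other programs. The r between the naive total and the totals of the other lists was -0.0717 for RA targets, 0.0382 for epiblast and -0.0268 for core genes. All of these r are over cells of 1 plate that share depth and library, and are descriptions only.

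Post-implantation epiblast genes, of which 3 of 12 were above 0.1 UMI, were present mainly as the de novo DNA methyltransferases Dnmt3a, with 344 UMIs in 123 cells, and Dnmt3b, with 348 UMIs in 108 cells. Dnmt3b had a Fano factor of 2.12, up from 1.28 at 12 h, which 168 of 2752 genes exceeded. The list total was 0.960 UMI per 2000. Its shared squared coefficient of variation was 0.155, against 0.293 at 0 h, 0.158 at 6 h, -0.104 at 12 h and 0.0386 at 36 h. Otx2 and Pou3f1 had no UMI and Fgf5 had 6. XEN genes, which mark extraembryonic endoderm, summed to 0.259 UMI, below the 0.679 at 0 h, 0.513 at 12 h and 0.510 at 36 h. Their shared squared coefficient of variation was 0.463 (0.0890 at 12 h and 0.627 at 36 h) in a total of 180 UMIs. The basement membrane gene Sparc had 0.0778 UMI per cell against 0.338 at 12 h. Lamc1 (laminin gamma 1) was the only one of 11 XEN genes above 0.1 UMI, with a Fano factor of 1.71.

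Among lists of cell physiology, the shared squared coefficient of variation of the amino acid and ER stress genes was 0.129. It was -0.00739 at 12 h and 0.161 at 36 h. Asns had a Fano factor of 2.09 at 24 h and the chaperone gene Hspa5 had 1.77. Herpud1, another gene of that list, had 9 of its 49 UMIs in 1 cell. The S phase and G2/M totals were barely correlated, at r = -0.0192 against -0.117 at 12 h. The G2/M shared spread was 0.00809, near the 0.00894 at 12 h, after 0.248 at 0 h and 0.0283 at 6 h. A Fano factor of at least 1.5 was found in 12 of 17 S phase genes, 11 of 19 G2/M genes, 61 of 89 ribosomal protein genes and 45 of 67 genes of oxidative phosphorylation above 0.1 UMI, against 1 of 18, 1 of 19, 7 of 89 and 3 of 66 at 12 h. Of all genes, 57.2% reached it at 24 h and 10.1% at 12 h. Ribosomal protein genes and genes of oxidative phosphorylation rose and fell together across cells, with r = 0.514 between their totals at 24 h, 0.542 at 12 h and 0.561 at 36 h. The ribosomal protein total was 246.4 UMIs per 2000 and ranged from 84.5 to 351.4. Each cell was thinned to a fixed sum of 2000 UMIs, of which the co-varying group described below took from 79.5 to 986.5. The lowest ribosomal total was in well G13, where that group made up 49.3% of the UMIs. How much of the r of 0.514 and of this range follows from the fixed sum was not tested.

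Pairs of genes that varied together were sought among 551 genes with a mean of at least 0.5 UMI. Of 151525 pairs, 1486 (0.981%) had a Pearson correlation of at least 0.3 over the thinned cells, and 38 had one of -0.3 or below. The number was 1563 at 0 h, 1405 at 12 h and 2307 at 36 h. Pairs at -0.2 or below numbered 852 at 24 h, 496 at 0 h, 620 at 12 h and 2164 at 36 h. Most pairs were the same, since 1208 of the 1486 also reached 0.3 at 0 h, 1182 at 12 h and 1419 at 36 h. In 89 SMART-seq2 cells of the same time point, 25 of 1429 measurable pairs did so, with a median r of 0.0199 against 0.384 in SCRB-seq over all 1486. Pairs share cells, plate and genes, so they are not independent of each other.

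Joined at r of at least 0.4, 61 genes formed 1 large group that held 1222 of the 1486 pairs. Its strongest pairs were Luc7l2 with Pbld1 (r = 0.77), Sec23ip with Ttf1 (0.77) and Dennd5b with Sec23ip (0.76), genes of splicing, metabolism, vesicle transport, ribosomal RNA transcription and membrane traffic with no common function as background. Of the 59 members with a GENCODE transcript, 53 (89.8%) held the B2 run with up to 2 mismatches, 34 in the direction of the run and 19 in the other. The run was held by 87 of 460 other genes of that level (18.9%), by 437 of 2622 genes above 0.1 UMI (16.7%) and by 3.14% of all gene names in the annotation. Lcmt2, March5, Ogdh, Tmem206, Tor4a and Zfp935 were the 6 members in which it was not found. Where both genes of a pair held the run, 994 of 9730 pairs (10.2%) reached 0.3, where 1 did, 260 of 53060 (0.490%), and where neither did, 87 of 71631 (0.121%). The group was chosen on its correlations, so these shares describe it and do not test it.

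**Figure D3:**
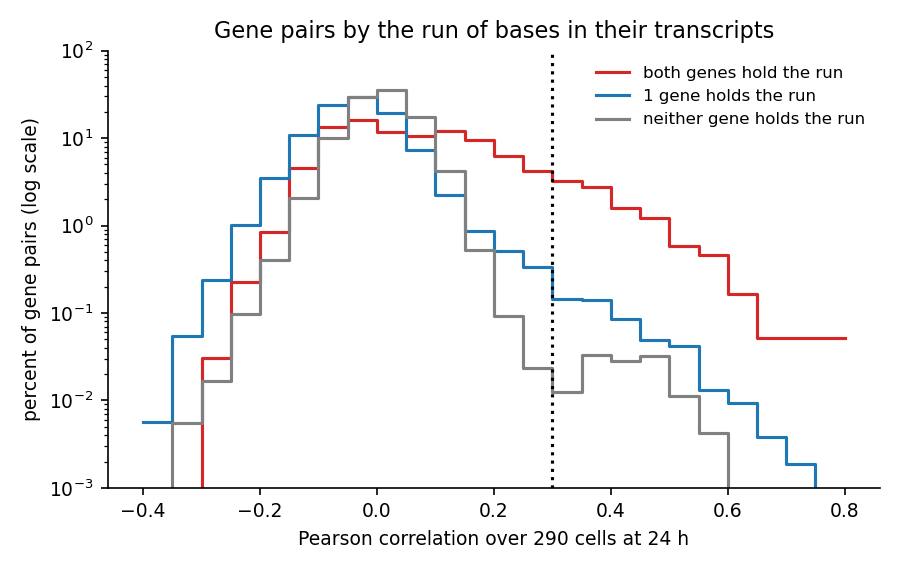
Percent of gene pairs (y axis, log scale) by their Pearson correlation over the 290 cells at 24 h (x axis), for pairs in which both, 1 or neither gene holds the 30-base B2 run. The dotted line marks 0.3, beyond which lie 10.2%, 0.490% and 0.121% of the 3 classes.

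The 61 genes made up a large share of each cell's UMIs. Their total averaged 432.4 of 2000 UMIs at 24 h (21.6%), against 11.3% at 0 h, 19.9% at 12 h and 22.3% at 36 h. In bulk RNA-seq, 60 of them made up 6.01% at 24 h and 2.78% and 2.33% in the 0 h libraries, of totals without Rn45s. Ppp1r16b, a phosphatase subunit, averaged 24.2 UMIs per 2000 in cells and 3.01 in bulk, and Sec23ip 21.6 against 2.11. In the SMART-seq2 cells the median Ppp1r16b level was 0.80 RPKM, and 7 of 59 group genes had a median under 1 RPKM. There, 20 of 1711 pairs within the group reached 0.3, against 1169 of the same pairs in SCRB-seq. Bulk and single-cell libraries differ in more than the cells, and the source of the difference was not tested.

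Across the 290 cells the group total ran from 79.5 to 986.5 UMIs per 2000, with quartiles of 344.6 and 536.3. It was highest in wells G13 (49.3% of 2155 UMIs), P24 (45.6% of 8056) and N16 (42.9% of 4305), and lowest in H5 (3.98% of 12978), A11 (4.40% of 4411), N3 (4.97% of 62365) and F5 (5.06% of 47895). All 9 wells over 20000 UMIs had group totals between 99.4 and 132.2 UMIs per 2000, near the 120.2 of the bulk library, and ribosomal totals between 326.8 and 341.05. Where the group was high, ribosomal protein genes were low, with r = -0.815 between the totals of thinned cells at 24 h. This r was -0.538 at 0 h, -0.659 at 12 h and -0.703 at 36 h. Over the 281 cells without those wells, r was -0.809 at 24 h in unthinned counts scaled to 2000 UMIs. Part of a negative r follows from the fixed sum of 2000 UMIs. The most negative pairs of genes mostly joined a member of the group with an abundant gene outside it, among them Hsp90aa1 with Ttf1 (r = -0.37), Hsp90ab1 with Sec23ip (-0.36) and Eef1a1 with Sec23ip (-0.34).

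**Figure D4:**
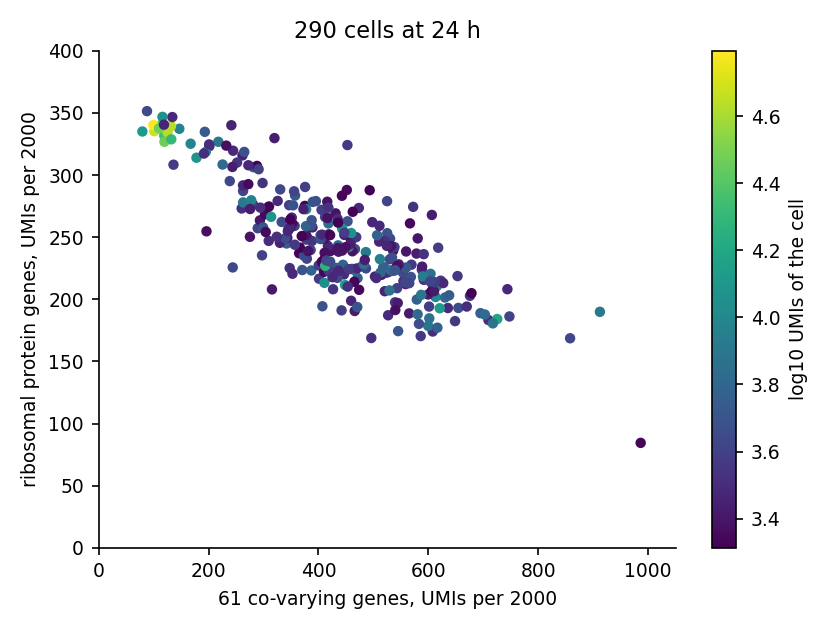
Summed UMIs per 2000 of the ribosomal protein genes (y axis) against those of the 61 co-varying genes (x axis) in each of the 290 cells at 24 h, coloured by the log10 of the cell's UMIs. The totals fall along a line (r = -0.815 over thinned cells), and the deepest cells sit at its upper left end.

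Nanog was a member of this group. Its 10 most correlated genes at 24 h were all group members, led by Gmeb1 (r = 0.409), Ppp1r16b (0.397) and Sec23ip (0.394). Membership rested on Gmeb1 alone, the only gene with which Nanog reached an r of 0.4. The r of Nanog with the rest of the group was 0.390 at 0 h, 0.252 at 12 h, 0.436 at 24 h and 0.379 at 36 h. Its r with the other naive genes was -0.116, -0.139, -0.0895 and -0.0427 at these times. In the SMART-seq2 cells at 24 h it was the other way round, with r = 0.614 for the other naive genes and 0.140 for the group. Mean Nanog per thinned cell went from 0.931 UMI at 0 h over 1.32 at 12 h to 1.73 at 24 h. Median Nanog in SMART-seq2 cells went from 99.7 RPKM at 12 h (86 cells) to 73.4 RPKM at 24 h. In bulk, Nanog was 0.326 and 0.310 per 2000 UMIs at 0 h and 0.466 at 12 h (Poisson 95% interval 0.427 to 0.508). At 24 h it was higher, 0.763 (0.710 to 0.819), at a lower level than in the cells. Bulk UMIs were counted in the same way, so the bulk Nanog values share the uncertainty of the repeat. The group as a whole was higher in bulk too, from 2.78% and 2.33% of UMIs at 0 h to 6.01% at 24 h. How many Nanog UMIs came from other copies of the repeat was not tested.

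Zfp42 and Stra8 had no strong partner. The 10 genes most correlated with Zfp42 had r between 0.105 and 0.137 and included the ribosomal protein genes Rps13, Rpl14, Rpl3, Rpl30 and Rpl9, and the 10 lowest, down to -0.157 for Rab33b, all held the B2 run. Its r with the other naive genes, Nanog left out, was 0.0502 over 290 SCRB-seq cells and 0.424 over 89 SMART-seq2 cells. Stra8 was highest with Eif5, a translation initiation factor, at r = 0.18, and its r with Zfp42 and Nanog was -0.0259 and -0.0579. In SMART-seq2 its r with the naive genes, Nanog left out, was -0.281. Weak correlations in counts this sparse are no finding in either direction. Bulk RNA-seq at 24 h gave 0.988 Zfp42 and 1.16 Stra8 UMIs per 2000, against means of 0.869 and 0.477 in the cells.

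Outside the group, the genes joined at r of at least 0.4 were mostly a gene and its near-identical copies, whose counts the alignment could split and which are therefore uncertain. Gapdh was joined with 7 such copies, the zinc finger genes Rex2, Zfp600, Gm13242 and Gm13247 with each other, Rps15a with 2 pseudogenes, and Eno1, Rps26 and Rpl26 with 1 each. Of 1341 pairs at 0.3 or above between genes with transcripts, 1072 shared at least 24 bases or both held the run. With these pairs, the group and all genes that hold the run set aside, 8 of 67606 pairs remained (0.0118%). They were led by A630089N07Rik with Gm17821 (0.45) and Gm17821 with Kcnq1ot1 (0.45), which were correlated at the other times too, and none joined 2 genes of the naive, RA target or epiblast lists. A few pairs just under 0.3, picked for their high r at 24 h, had lower r at 0 h, 12 h and 36 h. Lower values elsewhere can follow from that choice alone, so they are no finding about 24 h. Hnrnpu with Ran had r = 0.28 at 24 h against 0.03, 0.03 and 0.08, and Mcl1 with Pa2g4 had 0.27 against 0.01, 0.02 and -0.03. The r of these pairs in SMART-seq2 were -0.06 and -0.11.

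A few wells at 24 h held transcripts of the 2-cell-like program, which is known in mESC cultures as a transient state that resembles the 2-cell embryo and is marked by the Zscan4 family. The 21 listed genes had 148 UMIs in 54 of 290 cells, and their summed level had a Fano factor of 9.18 and a shared squared coefficient of variation of 30.1. Wells B21, O3 and A8 held 37, 15 and 11 of these UMIs, together 63 of 148 (42.6%), out of only 3894, 2103 and 4109 UMIs in all. The Zscan4 genes, near-identical paralogs that are best read as a sum, gave 20, 7 and 9 UMIs there. Without these 3 wells the shared squared coefficient of variation was 1.56. The next wells, N3 with 8 and J9 with 5 UMIs, were among the deepest on the plate, and all 7 UMIs of well M12 were of Zfp560. In all, 6 cells held at least 5 UMIs (2.07%, 0.763 to 4.45%), and 3 held at least 5 per 2000 UMIs.

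The 3 genes named above for their counts in B21 were also high in A8. 2310039L15Rik, Gm7102 and Dcdc2c had 32, 24 and 26 UMIs in B21 and 9, 12 and 6 in A8. In O3 they had 4, 4 and 1, together 9, fewer than the 10 in F18, which held no UMI of the list, or the 11 in N3. Over the plate they had 120, 118 and 127 UMIs in 54, 55 and 65 cells. B21 and O3 had no Pou5f1 UMI and A8 had 2, while Nanog had 3, 1 and 3. Pou5f1 was found in 199 of the 290 cells and was missing from 51.8% of thinned cells, so its absence from B21 and O3 is no finding. Over all other plates, the same wells held 6, 2 and 8 UMIs of the list. No cell at 12 h held 5 UMIs of the list and 1 cell at 0 h did, whereas 40 of 334 cells (12.0%, 8.70 to 15.9%) did at 36 h, where the list had 1654 UMIs. At 5 per 2000 UMIs, 11 cells passed at 36 h, beside the 3 at 24 h and 0 at 0 h and 12 h. In SMART-seq2, 2 of 89 cells at 24 h stood apart with 8400 and 6141 RPKM summed over the list, against 202 in the next cell and a median of 2.48. The same 2 cells ranked first and second for each of the 3 genes, and the highest list sum of 86 cells at 12 h was 133 RPKM.

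**Figure D5:**
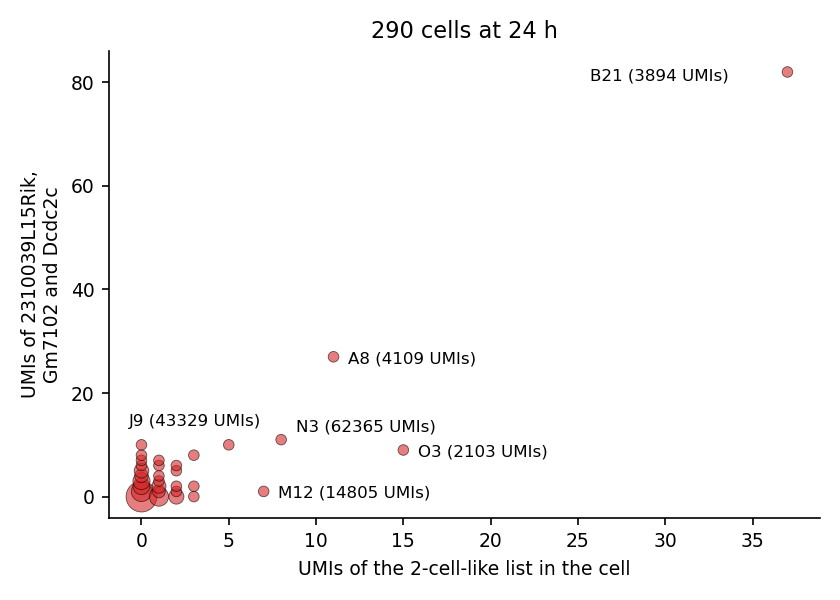
UMIs of 2310039L15Rik, Gm7102 and Dcdc2c (y axis) against UMIs of the 2-cell-like list (x axis) in each of the 290 cells at 24 h, with larger points for more cells and with the wells of at least 5 list UMIs named beside their total. B21 lies far from all other wells, and A8 and O3 follow.

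Genes seen in few cells but strongly in one were counted over the unthinned cells. Of 5772 genes with a UMI in at most 5% of the 24 h cells, 388 (6.72%) had at least 5 UMIs in 1 cell, against 105 of 5120 at 0 h, 150 of 5722 at 12 h and 172 of 6010 at 36 h. On later plates it was 431 of 5837 (7.38%) at 60 h, 398 of 5390 (7.38%) at 72 h and 222 of 4349 (5.10%) at 96 h. The 388 genes had 2 to 14 positive cells, with a median of 10, and the highest cell held a median of 33.3% of the gene's UMIs. For 209 genes the highest count was 5, for 110 it was 6, and 2 genes reached 10. With only cells of more than 3000 UMIs the number was 179, and without the 5% deepest cells, where more genes fall under the limit of 5% of cells, it was 621. Without the 9 wells over 20000 UMIs it was 665.

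The highest counts were 12 of Vps51, a vesicle tethering subunit, in the deepest well N3, and 10 of Fam73b in well M9, which held 3366 UMIs. Counts of 9 were found for Arhgef4 in C9, Fkbp6 in A9, Gas1 in A10, Nab1 in M24, Ppp2r2c in D18, Pqlc3 in G18, Smg9 in A13 and Zfp551 in C17. In these 8 genes no second cell held more than 3. The 388 maxima lay in 172 different wells and B21 had most, 15, followed by M12 with 10 and A13 and D18 with 9. Wells with at most 4000 UMIs held 43.3% of them at 24 h, against 16.2% at 0 h, 16% at 12 h and 8.72% at 36 h. Such wells made up 59.7% of the cells at 24 h, 50.7% at 0 h, 43.5% at 12 h and 39.8% at 36 h. For 233 of the 388 genes the same well had no UMI on any other plate, for 367 it had at most 2 on each, and for 8 at least 5.

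Of the 388 genes, 9 were also rare expressing genes at 12 h and 9 at 36 h, where 2.62% and 2.86% of all genes seen in at most 5% of cells were, and 7 were in a list. These were Zscan4a, Zscan4d and Gm8300 with their maxima in B21, Zfp560 in M12, the naive gene Dppa3 in E19 (5 of 18 UMIs), the epiblast gene Lef1 in M2 (5 of 16) and the germline gene Mael in O13 (8 of 19). Mael acts in silencing transposons in the germline, and its 9 positive cells included none with more than 3 UMIs after O13.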

How the data were processed

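SCRB-seq values are counts of UMIs per gene and well, deposited by the authors without normalization. The authors mapped the second read (46 bases) to RefSeq transcripts of the mouse, mitochondrial sequence and spike-ins with bwa 0.7.4 (mm10 in the submitters' notes), and counted UMIs once per gene and well. Strand handling was not given in the sources used here. Bulk values are UMI counts made in the same way. Their 18 columns of other samples were not used, and genes with text in place of a count, Rn45s among them, were left out. SMART-seq2 values are RPKM that the authors made with TopHat and Cuffnorm and deposited, from cells above a minimum number of reads. The depth of each cell is not in the files. Text values there, all under 1, were read as 0, and cells were scaled to their median total.

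Wells with more than 2000 UMIs were kept. Cells had been sorted singly, no doublet caller was run, and leaving out the 5% deepest cells served as an alternative. Unless named as unthinned, moments, shares and correlations are exact expectations over all ways of thinning a cell to 2000 UMIs, checked on simulated plates. Calls are fixed sizes: Fano factor 1.5 at a mean of 0.1, r of 0.3 at a mean of 0.5, and 5 UMIs in 1 of at most 5% of cells. Intervals are exact (Clopper-Pearson, Poisson, 95%) and cover counting error only. Floors for counts of 0 are 3 counts. Transcripts were matched by gene name in GENCODE M21 (519 of 551 genes).

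The members and lists were chosen with earlier results of these data known. Named genes were those of the lists, the 20 highest Fano factors, the 10 highest excess squared coefficients of variation, the 10 largest rises and falls from 12 h, the 15 highest and 10 lowest correlations, the 15 highest rare counts, and the 10 nearest and farthest partners of each marker. Others were chosen after their values were seen, such as the pairs free of shared bases. A few genes that the rule names are not reported here. With 1 plate per time point no comparison has a test. Computations used pandas 2.3.3, numpy 2.4.6, matplotlib 3.10.9 and scipy 1.17.1 under Python 3.11.15.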

Additional observations from a re-analysis of the deposited data

How the results depend on the processing

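No paired analysis was possible because each time point has 1 plate and no result comes from a test. Alternatives that used the wells over 20000 UMIs, depth classes above 6000 or up to 4000 UMIs, the B2 run, shared bases or the wells of the 2-cell-like list were chosen after seeing the data. The shares of Zfp42, Nanog and Stra8 stayed within their binomial intervals under all 4 alternatives run for each. The mean Fano factor at 24 h (1.58) and its difference from 12 h (0.269) became 1.57 and 0.264 with 1 random draw, 1.46 and 0.192 in cells with more than 3000 UMIs, 1.60 and 0.288 without the 5% deepest cells, 1.13 and 0.359 with unthinned scaled counts, 1.66 and 0.200 in genes of at least 0.5 UMI, 1.86 and 0.600 in the 829 genes that vary most for their mean level, 1.26 and 0.0613 in cells with more than 6000 UMIs, 1.29 and 0.0816 in those of them with up to 20000, 1.69 and 0.306 in cells with up to 4000, 1.59 and 0.281 without the 9 wells over 20000, and 1.57 and 0.288 without Rn45s and genes that hold the run. The difference kept its sign in all 11. The 1574 genes above 1.5 became 1015 with more than 3000 UMIs, 287 in cells with more than 6000, 435 in those of these cells with up to 20000, 357 with scaled counts, 3951 without a filter on the mean, and 2413 at the lower of both sizes tried. The other 5 alternatives gave 1420 to 1808. The 1486 pairs became 2822 with scaled counts, 3429 with Pearson's r of log2(scaled count + 1) and 3170 with Spearman's rho, all 3 of which also left out thinning, and 269 without pairs that share bases or both hold the run, 76 without group genes and genes that hold the run, and 8 without both kinds. The 388 rare genes became 2 at 10 UMIs, 179 with more than 3000 UMIs, 621 without the 5% deepest cells and 665 without the 9 wells over 20000. Of 22 list totals, 16 had a Fano factor of at least 1.5, and 11 to 17 did under the alternatives. The shared squared coefficient of variation of the 2-cell-like list was 30.1, 21.1 without well B21 and 1.56 without B21, O3 and A8. Depth limits all values, and a count of 0 in 290 cells allows a share of cells with a UMI of up to 1.03% at a floor of 3 counts.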

Other observations

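Several further lists were measured at 24 h and belong to no comparison above. Metallothioneins, which bind zinc and other metals, stood at 1.28 UMIs per 2000 against 5.45 at 0 h and 2.43 at 12 h, and Mt1 had a Fano factor of 1.74 at 24 h. Genes of the p53 response summed to 1.15 UMIs against 2.18 at 0 h, and Cdkn1a, the cell cycle inhibitor, had 12 UMIs in 12 cells. ERK feedback genes summed to 0.478 UMI, with Dusp6 at 0.132 UMI per cell against 0.0151 at 0 h, where the MEK inhibitor was present, and Etv5 at 0.146 against 0.426. Among glycolysis genes, 7 of 13 above 0.1 UMI had a Fano factor of at least 1.5, beside 57.2% of all genes, and Gapdh, at 1.34, was less variable than Gpi1 at 1.90. Germline genes had 343 UMIs, and 3 of the 4 immediate early and heat shock genes above 0.1 UMI had a Fano factor of at least 1.5, beside the same 57.2%. Early neural and ectoderm genes summed to 0.901 UMI. The neural factor Pax6 had 46 UMIs in 29 cells, with 0 UMIs at 0 h, and Mdk, a growth factor, 424 UMIs in 170 cells with a Fano factor of 1.18, low for this plate.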
